A study of Rattus norvegicus with 5 samples.

Results

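Complex I, or NADH dehydrogenase, is the entry point of electrons into the mitochondrial respiratory chain, and its nuclear-encoded subunits carry the symbol root Nduf. The subunit genes were taken as all non-control array features whose accession maps to a rat symbol made of Nduf, a letter a, b, c, s or v and a number. The rule found 36 features for 30 genes, out of 30100 features measured on all 5 arrays and 15069 named genes. Of the 37 rat subunit symbols looked for, 7 had no named feature here: Ndufa3, Ndufa7, Ndufa8, Ndufa13, Ndufb1, Ndufc1 and Ndufs6.

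The study asked how Tmub1, a membrane protein with a ubiquitin-like domain, bears on transcription in hepatic cells. It used BRL-3A, a cell line from normal rat liver, in 5 groups of 1 one-colour array each. The groups were cells given a lentivirus for Tmub1 overexpression, cells given the Negative Control lentivirus of that vector, cells given a lentivirus for Tmub1 knockdown, cells given the Negative Control lentivirus of the knockdown vector, and normal cells, for which the labels name no virus. Transduced cells were harvested after 48 h, and the labels give the same line and culture medium for all groups. The promoter of the transgene and the sequence of the knockdown construct are not given in the sources used here. With 1 array a group no difference has a replicate check and no p-value is given, and in bulk RNA fewer cells of a type and less RNA per cell cannot be told apart.

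Complex I is L-shaped. A peripheral arm in the matrix holds the N module, which oxidizes NADH at a flavin, and the Q module, which passes the electrons over iron-sulphur clusters to ubiquinone. A membrane arm pumps protons. A core of subunits shared with bacteria does the catalysis, part of it encoded in mitochondrial DNA, and many accessory subunits surround and stabilise it. Promoters of respiratory chain genes are known for sites of NRF1, of the ETS factor GABP and of YY1.

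RefSeq promoter windows of assembly GRCr8, from 250 bases before to 50 after the annotated start, were matched for 28 of the 30 genes by symbol. Letters were searched on both strands: CGCATGCG for an NRF1 core, CCGGAAG for a GABP core and AAGATGGC for a YY1 core, where the GABP and YY1 letters can share AAG but do not overlap in the windows printed here. Of the 28 windows, 6 held the GABP letters (21.4%, against 9.22% of all 27457 windows), 6 held the YY1 letters (21.4% against 3.44%) and 1 held the NRF1 letters (3.57% against 1.81%). In 33 windows of complexes II to V the shares were 39.4%, 21.2% and 18.2% in the same order. At least 1 of the 3 was present in 11 complex I windows, or 39.3%, against 13.3% of all windows. The median GC content of the complex I windows was 56.2% and that of all windows was 52.3%. Of the windows printed here, Ndufb4 and Ndufa1 belong to genes that were among those farthest down on the knockdown array, Ndufa9 to the gene farthest up, and Ndufa6 to a gene with both GABP and YY1 letters. Each is written 5′ to 3′ along the gene with matched letters in capitals, a match to the opposite strand appearing as the reverse complement.
Ndufb4, chr11:76568928-76569227, plus strand, no match: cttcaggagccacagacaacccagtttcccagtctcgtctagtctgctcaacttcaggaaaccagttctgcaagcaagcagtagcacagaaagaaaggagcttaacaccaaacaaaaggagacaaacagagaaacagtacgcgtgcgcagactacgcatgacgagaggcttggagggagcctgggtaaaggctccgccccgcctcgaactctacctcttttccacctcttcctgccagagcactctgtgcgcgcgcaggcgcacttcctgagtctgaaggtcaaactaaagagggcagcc
Ndufa1, chrX:121293506-121293805, minus strand, 2 GABP matches: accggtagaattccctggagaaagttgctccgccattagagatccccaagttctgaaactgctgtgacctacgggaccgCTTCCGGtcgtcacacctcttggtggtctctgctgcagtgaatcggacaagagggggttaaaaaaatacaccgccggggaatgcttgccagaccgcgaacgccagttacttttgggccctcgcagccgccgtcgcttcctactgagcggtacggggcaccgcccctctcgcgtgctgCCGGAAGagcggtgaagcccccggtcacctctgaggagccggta
Ndufa6, chr7:115750268-115750567, minus strand, 1 GABP and 1 YY1 match: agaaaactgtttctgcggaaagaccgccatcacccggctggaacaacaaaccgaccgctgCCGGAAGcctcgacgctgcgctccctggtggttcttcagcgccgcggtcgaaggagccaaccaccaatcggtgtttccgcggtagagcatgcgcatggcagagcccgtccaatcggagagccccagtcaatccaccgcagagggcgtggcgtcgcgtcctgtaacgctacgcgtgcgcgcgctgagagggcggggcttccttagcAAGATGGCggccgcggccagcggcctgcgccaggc
Ndufa9, chr4:161374121-161374420, minus strand, 1 YY1 match: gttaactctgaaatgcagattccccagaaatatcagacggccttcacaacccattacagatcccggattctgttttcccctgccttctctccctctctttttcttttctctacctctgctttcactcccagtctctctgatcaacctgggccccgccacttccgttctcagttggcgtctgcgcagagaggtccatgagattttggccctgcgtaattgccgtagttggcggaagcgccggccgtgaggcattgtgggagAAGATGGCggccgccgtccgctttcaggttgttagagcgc
A match describes these letters and is not evidence that a factor binds there.

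Values are given below as log2 levels, the log2 of the scanner's processed signal minus the array's 75th percentile, so that 0 is the 75th percentile. A difference is one log2 level minus another, and a gene with several features is read from the feature with the highest mean. Levels of different features depend on the probe and are not compared as transcript amounts. All 36 complex I features were well above background on all 5 arrays by the scanner software's call, and none was saturated. The 8 features printed in 10 spots varied between spots by a median SD of 0.05 to 0.06 (log2) per array, and the scanner's own error on a difference was about 0.20 for each gene. Both cover the reading of the spots and not the spread between cultures. The median subunit level was 3.84 with overexpression, 4.03 in its Negative Control, 2.98 with knockdown, 3.67 in the knockdown Negative Control and 3.43 in normal cells. The knockdown array was thus the lowest for the group. The median of all genes, most of them dimmer, was between -2.44 and -2.12 on the same arrays. Genes nearest a mean level of 3.67 were also lower with knockdown than in its Negative Control, by a median difference of -0.74. Only the mRNA was measured, not the complex.

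**Figure D1:**
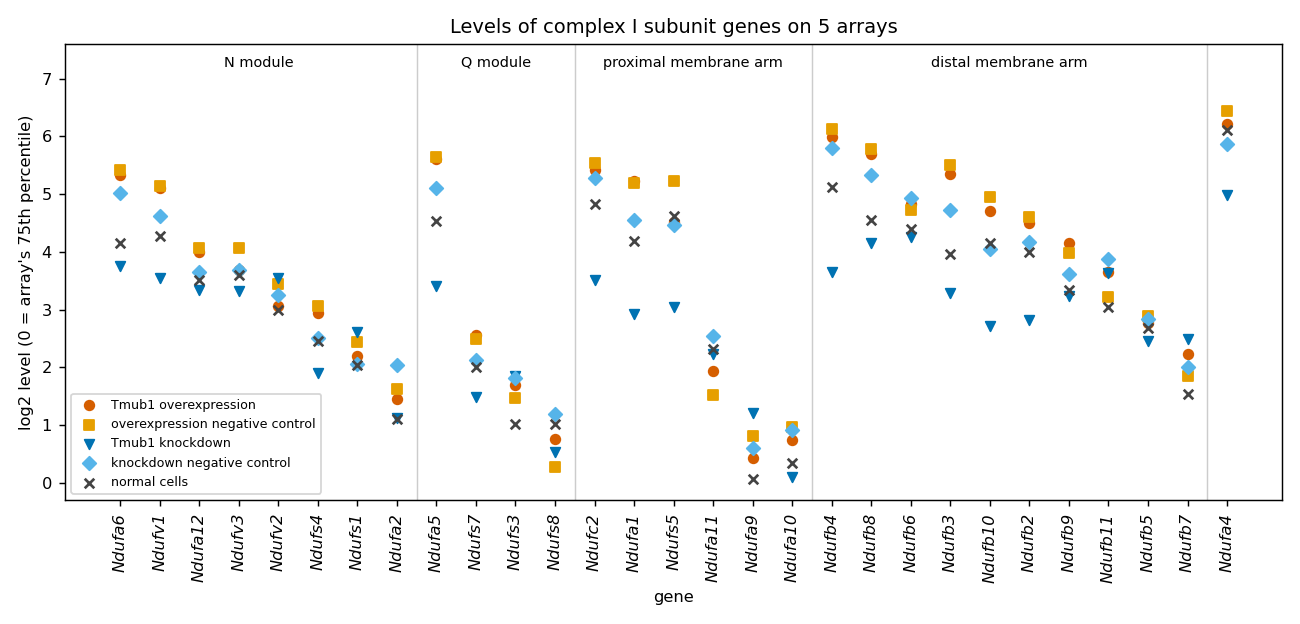
Log2 level (vertical axis; 0 is the array's 75th percentile) of the complex I subunit genes described (horizontal axis, by module) on the 5 arrays, 1 point per array and no error bar. The knockdown array (blue triangles) is the lowest of the 5 for most genes and the highest for 5.

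Some features of the arrays bear on all comparisons. The knockdown and normal arrays were the brightest before scaling, with 75th percentiles of 10.44 and 10.33 (log2 signal) against 9.04 to 9.41 on the other 3 arrays. The normal array was scanned on another day than the 4 transduced arrays, so scan day and transduction cannot be told apart. Of 5 skeletal muscle markers (Ckm, Tnnc2, Acta1, Myh4, Tnni2), the median level was 2.08 to 2.53 on the 4 transduced arrays and -5.86 on the normal array, and their part in the differences from normal cells was not tested. Hepatocyte markers were low, with 4 of 9 well above background on all 5 arrays and a median level of -6.30 to -4.76, while all 8 stellate and fibroblast markers were well above background on all 5. Of these 9, 5 were well above background on each transduced array and 6 on the normal one, while Cps1 and Tat were so on no array. Tmub1 itself was at 0.48 with overexpression, 0.44 in its control, -1.38 with knockdown, 0.46 in its control and 0.14 in normal cells, so its probe was lower with knockdown and differed by 0.04 with overexpression. Of 5 leukocyte markers, the median level was -2.52 to -1.71 on the transduced arrays and -2.35 on the normal one, and 3 were well above background on all 5 arrays. Within that list Ptprc stood apart, at -3.68 to -2.99 on the transduced arrays and -8.87 on the normal one, and so did Dcn in the stellate and fibroblast list, at 1.18 to 1.84 and -4.20. Both were singled out after their values were seen. Whether the normal array holds the same cells as the others was not tested, and every difference from normal cells is given with that limit.

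The knockdown virus was compared with its own Negative Control to ask how complex I mRNAs differ when Tmub1 is lowered. In this pair 25 of the 30 genes had a lower level with knockdown and 5 a higher one, with a median difference of -0.75 (quartiles -1.34 and -0.33). At least 2.5-fold lower were 9 genes, among them Ndufb4, Ndufc2, Ndufa5, Ndufa1, Ndufb3, Ndufs5, Ndufb10 and Ndufb2. None was 2.5-fold higher. Of all genes that could be called, 9.59% were that far lower and 8.72% that far higher. At 1.5-fold, 19 subunit genes were lower and 1, Ndufa9, was higher, against 32.1% lower and 22.6% higher among all genes. The subunit features are bright, however, and bright features were lower as a whole on this array. Among the 1711 genes with a mean level between the quartiles of the subunits (2.12 to 4.56), 16.8% were at least 2.5-fold lower and 1.75% higher, and the median difference was -0.68.

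**Figure D2:**
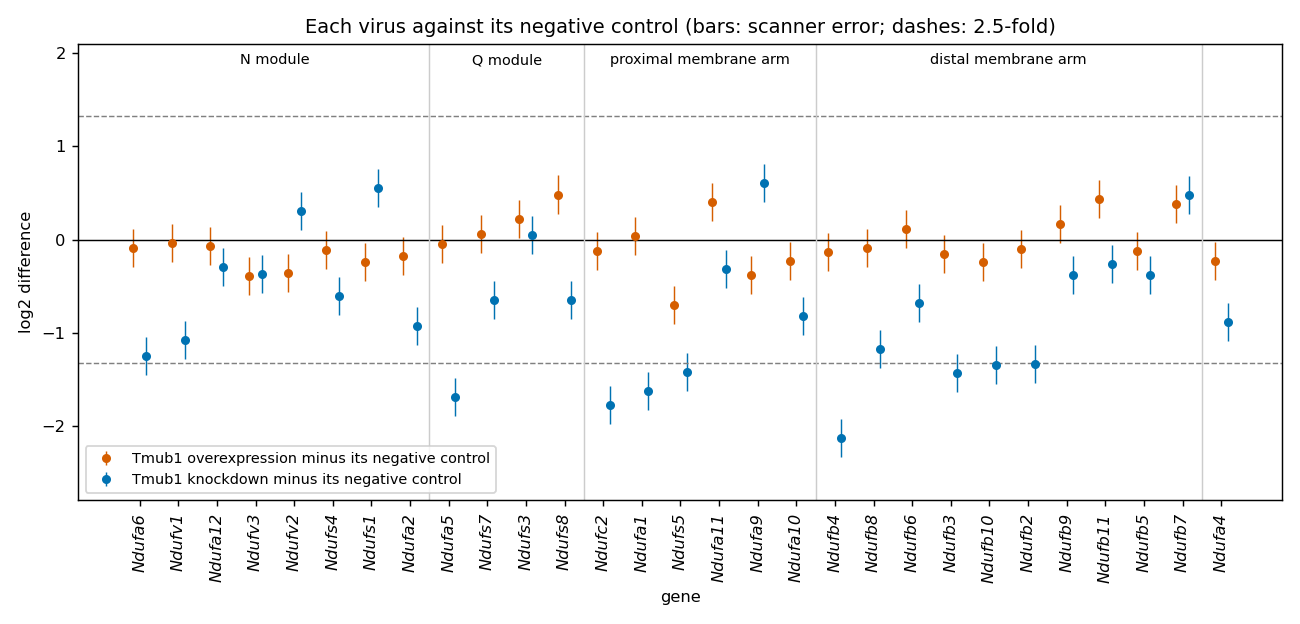
Log2 difference (vertical axis) of the complex I subunit genes described (horizontal axis, by module) between a virus and its own Negative Control, for overexpression (orange) and knockdown (blue); bars are the scanner's error and dashed lines mark 2.5-fold. The points below the lower dashed line are all knockdown values, and the overexpression values lie between -0.71 and 0.48.

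The distal membrane arm is made of accessory Ndufb subunits around proton-pumping core subunits. Of its 10 genes here, 4 were at least 2.5-fold lower with knockdown, and the median difference was -0.93. That median was -0.12 after cyclic loess and -0.31 in the authors' deposited values. At least 2.5-fold lower were also 9.59% of all callable genes and 16.8% of the genes between the subunits' level quartiles. Ndufb4 had the largest fall, 4.39-fold or -2.14, with levels of 5.99 with overexpression, 6.13 in its control, 3.66 with knockdown, 5.79 in the knockdown control and 5.13 in normal cells. The knockdown array was the lowest by more than 1 log2 unit, and the fall was visible in the processed signal before scaling, 17477 against 37737 units, although that array was the brighter one. The other Ndufb4 feature gave levels of 4.68, 4.46, 3.45, 4.74 and 4.08 in the same order, a difference of -1.29. Ndufb4 has 7 pseudogenes and 4 similarly named genes by symbol in the RefSeq table, so its probes may share signal with copies and its values are uncertain. The same limit holds for other subunit genes, of which 12 in all have a pseudogene by symbol. Among those lowered, Ndufs5 has 2 and Ndufa1 and Ndufb10 have 1 each, while Ndufb3 has 3 similarly named genes. Ndufb3 was at 5.35, 5.51, 3.29, 4.72 and 3.96, and was 2.70-fold lower with knockdown (-1.43). Ndufb10 was at 4.71, 4.95, 2.71, 4.06 and 4.15 on its brighter feature, a difference of -1.35. Its dimmer feature went the other way, at 0.62 in the control and 0.82 with knockdown, so the fall of Ndufb10 rests on 1 of 2 features. Ndufb2 was at 4.50, 4.6, 2.83, 4.17 and 4.0, a difference of -1.34. Ndufb8 fell short of the threshold at -1.18. Ndufb6, Ndufb9, Ndufb5 and Ndufb11 differed by -0.68, -0.38, -0.38 and -0.26, and Ndufb7 by 0.48.

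The proximal membrane arm is the part of the membrane arm nearer the peripheral arm. Of its 6 genes here, 3 were at least 2.5-fold lower with knockdown, and the median was -1.12. That median was -0.64 after cyclic loess and -0.80 in the authors' deposited values. Shares past that fold were 9.59% of all callable genes and 16.8% of the genes between the subunits' level quartiles. Ndufc2, an accessory subunit of this arm, was at 5.41, 5.54, 3.51, 5.29 and 4.83 on the overexpression, overexpression control, knockdown, knockdown control and normal arrays. It was 3.43-fold lower with knockdown than in its control (-1.78), and its processed signal was 15764 against 26553. Ndufa1, a small X-linked subunit with a single membrane span, was at 5.23, 5.18, 2.92, 4.55 and 4.18, a 3.10-fold fall. Both were lowest on the knockdown array by more than 1 log2 unit. Ndufs5 was at 4.52, 5.23, 3.05, 4.47 and 4.62, a difference of -1.42, and its other feature gave -1.06. Ndufa10, a subunit with a kinase-like fold, differed by -0.82 and Ndufa11 by -0.32. Ndufa9, which sits where the arms meet, was the exception, at 0.43, 0.82, 1.20, 0.60 and 0.07. Its difference of 0.61, or 1.52-fold, was the largest rise of the 30. Its processed signal was 3190 with knockdown and 1030 in the control, but the knockdown array was brighter as a whole by 1.02 (log2 of the 75th percentile).

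In the Q module the median was -0.65. Ndufa5, an accessory subunit of this module, was at 5.60, 5.65, 3.41, 5.10 and 4.54, a 3.22-fold fall, and has 4 pseudogenes by symbol. The core subunits Ndufs7 and Ndufs8, which hold iron-sulphur clusters, differed by -0.65 each, and the core subunit Ndufs3 by 0.05.

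In the N module no gene of 8 reached 2.5-fold, and the median was -0.49, though it turned to 0.08 after cyclic loess and lay at 0.007 in the authors' deposited values. The 2 most lowered were Ndufa6 at -1.25 and Ndufv1, the core subunit that binds the flavin and NADH, at -1.08. Ndufa2, Ndufs4, Ndufv3 and Ndufa12 differed by -0.93, -0.60, -0.37 and -0.30. The other feature of Ndufs4 gave 0.26, and those of Ndufv3 gave -1.04 and 0.26, so the features of both genes disagreed in sign. Ndufs1, the largest core subunit and a carrier of iron-sulphur clusters, was at 2.20, 2.44, 2.61, 2.06 and 2.04, a difference of 0.55. Ndufv2, also a core subunit with an iron-sulphur cluster, differed by 0.30. Over the 22 accessory subunits 8 were at least 2.5-fold lower. That far lower were 9.59% of all callable genes and 16.8% of the genes between the subunits' level quartiles. Ndufa4, which the symbol rule takes in but which is now counted as a subunit of complex IV, was at 6.21, 6.44, 4.99, 5.87 and 6.11, a difference of -0.88.

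The knockdown array was the lowest of the 5 for 21 subunit genes, or 70%, against 39.4% of all genes and 61.6% of genes between the subunits' level quartiles. It was the highest for 5, Ndufa9, Ndufb7, Ndufs1, Ndufs3 and Ndufv2, or 16.7%, against 22.5% of all genes and 9.64% of the equally bright genes. Before scaling, when the knockdown array was brighter by 1.02 (log2 of the 75th percentile), 12 of the 30 signals, or 40%, were still lower with knockdown, against 16.1% of all genes and 30.0% of the equally bright genes. Within the group, the brighter features had the lower differences. Over the 30 genes the difference and the mean level had a Pearson r of -0.60, and over all named genes r was -0.17, both as a description of 1 pair of arrays. Subtracting from each difference the median of the 3.32% of genes nearest in mean level left a subunit median of -0.15, with 14 genes above 0 and 16 below, and no gene at least 2.5-fold apart. The spread of the centred subunit differences, an interquartile range of 0.93, equalled that of the band of equally bright genes. On this centred scale Ndufb4 was still the lowest at -1.20, Ndufc2, Ndufa5 and Ndufa1 were at -0.87, -0.79 and -0.76, and Ndufs1 and Ndufb7 were highest at 1.18 and 1.06.

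**Figure D3:**
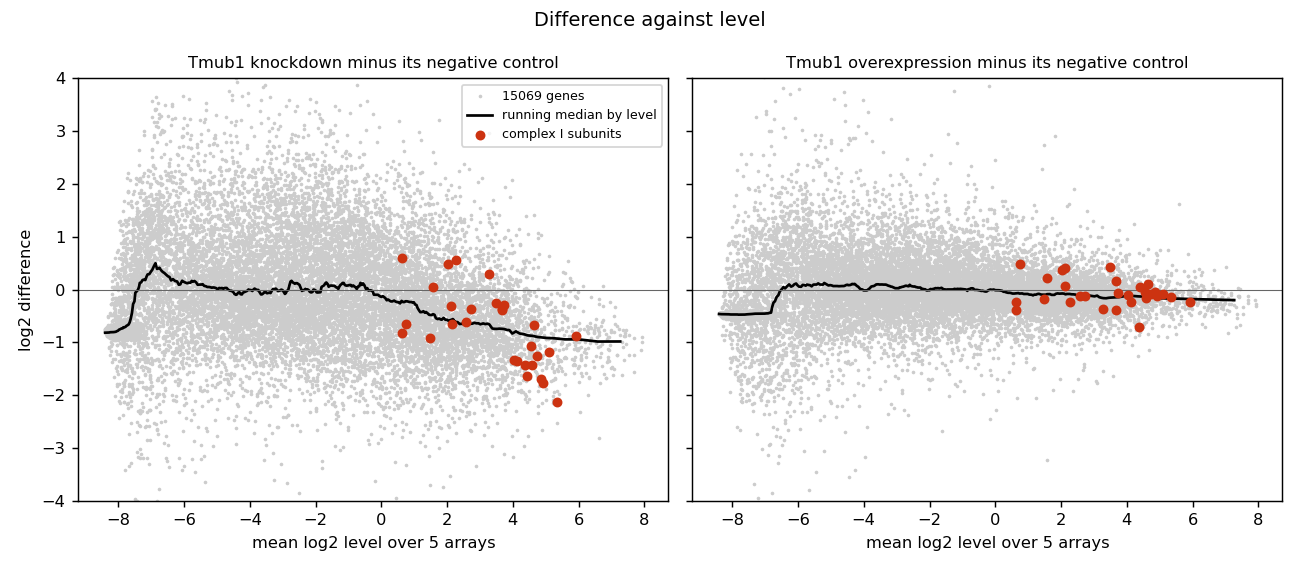
Log2 difference (vertical axis) against the mean log2 level over the 5 arrays (horizontal axis) for all named genes (grey), with the running median by level (black line) and the complex I subunit genes described (red), for knockdown and for overexpression. The line falls with level on the knockdown side and the red points lie around it; 42 and 17 genes beyond 4 are not drawn.

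The window letters were also set beside these differences. The 6 genes with GABP letters had a median difference of -0.79 with knockdown and the 22 without had -0.75. For YY1 letters the medians were -0.79 with and -0.75 without. The mRNAs of the factors themselves differed by -0.82 for Gabpa, 1.25 for Yy1 and -0.15 for Nrf1. Of 12 biogenesis regulators on the array, 1 was at least 2.5-fold lower, Esrra (-1.91), against 9.59% of all callable genes. Esrra is a nuclear receptor known to act on respiratory chain genes, and its part in these differences was not tested.

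The overexpression virus was compared with its own Negative Control to ask the same of the Tmub1 vector. The median of the complex I genes was -0.11 (quartiles -0.23 and 0.06), with 9 genes higher and 21 lower, and 0 reached 2.5-fold. The shares of all callable genes past that fold were 1.61% on the high side and 1.07% on the low side. At 1.5-fold, 1 of the 30 was lower, Ndufs5, against 8.92% of all genes, and 0 were higher against 10%. Ndufs5 had levels of 4.52 with the virus and 5.23 in its control (-0.71), but its other feature gave 3.20 and 3.12 (0.08). The drop therefore rests on 1 of 2 features. Ndufv3, an N module accessory subunit, was the next lowest of the genes, with levels of 3.68, 4.07, 3.32, 3.69 and 3.61 and a difference of -0.39. Its other features gave -0.51 and 0.67, so the gene has no settled direction with overexpression. The other Ndufb4 feature also disagreed with the main one, at 0.22 against -0.14. The largest rises were in Ndufs8, a Q module core subunit with levels of 0.75, 0.27, 0.53, 1.19 and 1.02 (0.48), and in Ndufb11, with levels of 3.65, 3.22, 3.63, 3.88 and 3.05 (0.43). For both, the Negative Control was lower than the other Negative Control by more than the rise. Median differences by module were -0.14 in the N module, 0.06 in the Q module, -0.18 in the proximal arm and -0.09 in the distal arm. All 8 N module genes were below 0, between -0.39 and -0.04, but Ndufa6, Ndufa12 and Ndufv1 lay above 0 under at least 1 other scaling. The distal arm also turned, to 0.052 after cyclic loess, and the median of all 30 genes was 0.032 there. The band of equally bright genes had a median of -0.12.

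The 2 Negative Controls were compared with each other as a measure of how far arrays without a Tmub1 construct lie apart. The overexpression Negative Control was higher for 23 of the 30 subunit genes, by a median of 0.37 (band of equally bright genes 0.35), and 0 were 2.5-fold apart in either direction. Past that fold lay 3.85% of all genes on the high side and 4.7% on the low side. At 1.5-fold, 4 subunit genes were higher and 3 lower, against 21.3% and 17.9% of all genes. The largest differences were 0.89 for Ndufb10 and 0.78 for Ndufb3 on the high side, and -1.02 for Ndufa11 and -0.92 for Ndufs8 on the low side. The features of Ndufv3 disagreed here, at 0.68 for one and -0.65 for another, so that gene has no settled direction between the controls.

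Each Negative Control was also set against normal cells, with the scan day and the muscle markers given above moving with the comparison. Against normal cells 28 of 30 subunit genes were higher in the overexpression Negative Control, with a median of 0.58, and 1 was at least 2.5-fold higher, Ndufb3, with levels of 5.51 and 3.96 (1.55). That call was lost under quantile, cyclic loess and the detected-feature percentile, in the authors' deposited values and after centring by level. No subunit gene was that far lower. Past that fold lay 7.89% of all genes on the high side and 9.5% on the low side. In the knockdown Negative Control 26 were higher, with a median of 0.32, and 0 were 2.5-fold apart, against 6.74% higher and 10.3% lower among all genes. Equally bright genes had medians of 0.66 and 0.29, close to those of the subunits.

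The knockdown array was also set against the other controls, which share that 1 array. Against the overexpression Negative Control, 13 subunit genes were at least 2.5-fold lower and 0 higher, against 16.8% and 13.2% of all genes. Against normal cells, 5 were lower and 0 higher, against 19.5% and 10.9% of all genes. The subunit medians were -0.94 and -0.40. Genes nearest a mean level of 3.67 had medians of -1.20 and -0.42 in the same order. Bright genes as a whole were thus lower on the knockdown array here too. The shares of equally bright genes past 2.5-fold are not given for these controls. The number of lowered subunits thus ran from 5 to 13 with the control chosen.

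The other respiratory chain complexes were read for comparison, from lists chosen by function. In the knockdown pair the medians were -0.44 for 4 genes of complex II, -0.81 for 8 of complex III, -1.21 for 11 of complex IV and -0.90 for 13 of complex V (ATP synthase), so the median of complex I, -0.75, lay between them. After cyclic loess the medians were 0.063, -0.12, -0.33 and -0.24 for complexes II to V, beside -0.27 for complex I, so complex II turned. Genes at least 2.5-fold lower numbered 1 in complex II (Sdhc), 2 in complex III (Uqcrb, Uqcr10), 2 in complex IV (Cox5b, Cox7a2l) and 3 in complex V (Atp5f1e, Atp5me, Atp5mc1). That far lower were 9.59% of all callable genes and 16.8% of the genes between the complex I subunits' level quartiles. The 15 complex I assembly factors, which build the complex and are not part of it, had a median of 0.04. Of these, Ndufaf3 was at least 2.5-fold lower (-1.44) and Timmdc1 at least 2.5-fold higher (2.27), against 9.59% and 8.72% of all callable genes. Ndufab1, the mitochondrial acyl carrier protein bound in both arms, differed by -0.85. With overexpression the medians were -0.04, 0.01, -0.11 and -0.19 for complexes II to V and -0.03 for the assembly factors, and 0 of these genes were 2.5-fold apart; the medians of complexes II and IV and of the assembly factors were above 0 after cyclic loess.

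**Figure D4:**
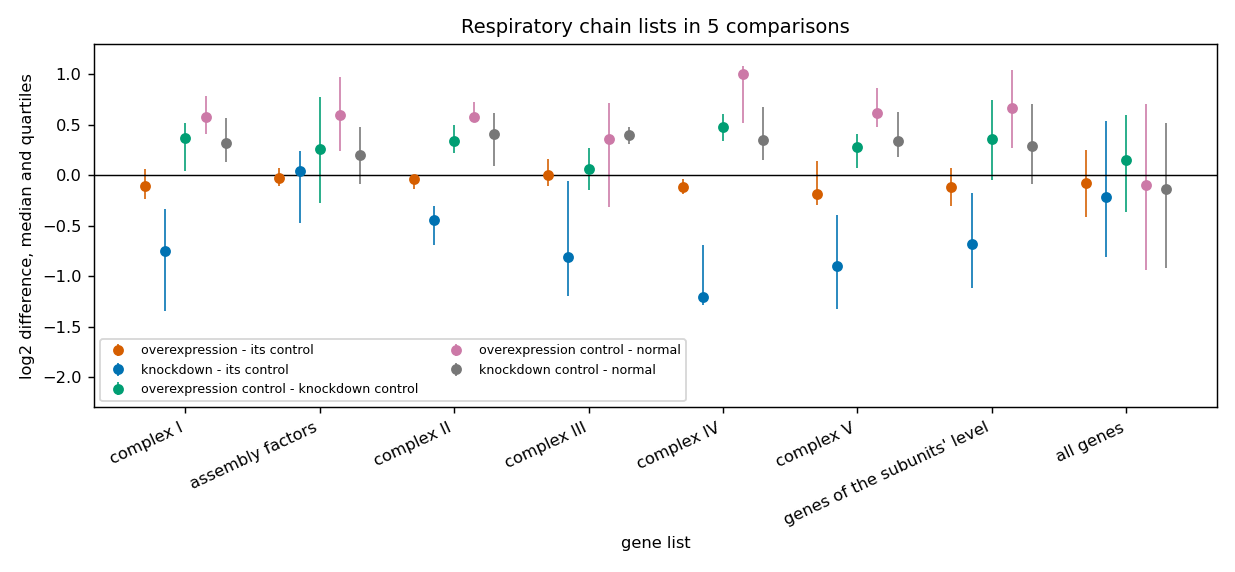
Median log2 difference (vertical axis; bars from the lower to the upper quartile of the genes) of each gene list (horizontal axis) in 5 pairs of arrays. Complexes I to V have their lowest medians in the knockdown pair, at -0.75, -0.44, -0.81, -1.21 and -0.90, and genes of the subunits' level lie at -0.68; complex II is above 0 after cyclic loess.

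The size of the knockdown difference depended on how the arrays were scaled. The subunit median of -0.75 became -0.40 after quantile normalization, -0.27 after cyclic loess and -0.37 in the authors' deposited log2 values, and the number of genes at least 2.5-fold lower fell from 9 to 1, 0 and 1. The gene left in both cases with 1 was Ndufb4. Among the genes named with a fall, Ndufb4, Ndufc2, Ndufa5, Ndufa1, Ndufb3, Ndufs5, Ndufb10 and Ndufb2 stayed below 0 and the 5 genes with a rise stayed above 0 under these scalings, under normexp and under the percentile over detected features. By contrast, Ndufa11, Ndufa12, Ndufa4, Ndufb11, Ndufb5, Ndufb6, Ndufb9 and Ndufv3 changed sign under at least 1 of them. By module, the cyclic loess medians were -0.64 in the proximal arm, -0.41 in the Q module, -0.12 in the distal arm and 0.08 in the N module, in the same order from low to high as the main values only at both ends.

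**Figure D5:**
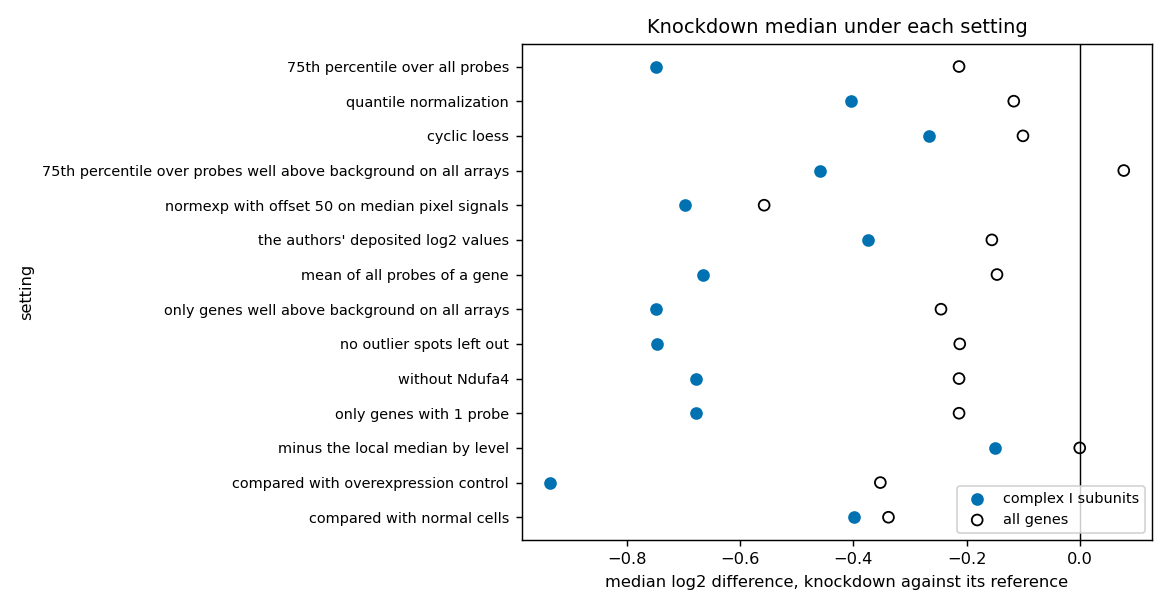
Median log2 difference of knockdown from its reference (horizontal axis) for the 30 complex I subunits (filled points) and for all genes (open points) under each setting (vertical axis). The subunit median runs from -0.94 to -0.15, and is below 0 at each setting. Every setting uses the same knockdown array and some reuse the main values, so this sign is no test of stability.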

How the data were processed

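Gene expression was measured on 5 one-colour Agilent arrays, 1 per group, from Cy3-labelled cRNA made of 1 µg RNA per the labels. The deposited scanner files hold processed signal intensity, background-subtracted by Agilent Feature Extraction (11.0.1.1 per the file headers, 9.1 per the submitters' processing notes). The authors' deposited table holds log2 values whose columns have equal quartiles, made with unstated software, and served as an alternative. Per array, log2 signal minus the 75th percentile over non-control features was taken, leaving out control spots and spots marked as outliers. Of 30100 features measured on all arrays, 17865 were named through the RefSeq table and 12235 were not. Calls needed the brighter side well above background and a fold of at least 2.5 (from the series' design text) or 1.5; a dim side was first raised to the lowest detected value of its array. With 1 array a group there is no test, and the number of arrays limits the precision. Members were named by module, except for an item that is not reported here; full values were given for those past 2.5-fold and for the 2 largest rises and falls per virus, and differences for features of a gene that disagree in sign in a virus comparison, or by 1.5-fold each way in any. The members, the lists and the settings were chosen with earlier results of these data known. Only the step that calls genes past a fold was tested on simulated data, which had no brightness gap between arrays and no trend with level. R 4.3.3 with limma 3.58.1 and Python 3.11.15 were used. Alternatives were quantile and cyclic loess normalization, a percentile over detected features, normexp (on median pixel signals, offset 50), the mean of a gene's features, a filter on dim genes, fold thresholds of 2 and 4 and other control arrays. Centring on equally bright genes, leaving out Ndufa4, genes with 1 feature and keeping all spots were added after seeing the data.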

Additional observations from a re-analysis of the deposited data

How the results depend on the processing

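No paired analysis was possible because each group has 1 array and the groups share 1 replicate number only, and no replicate could be left out. The median over the complex I subunits for overexpression, -0.11, was 0.0045 with quantile normalization, 0.032 with cyclic loess, 0.0092 in the authors' deposited log2 values and 0.033 after centring on equally bright genes, and turned to 0.21 against the knockdown Negative Control and 0.50 against normal cells, where 1 gene rather than 0 was 2.5-fold apart. The knockdown median, -0.75, was -0.40 with quantile normalization, -0.27 with cyclic loess, -0.46 with the percentile over detected features, -0.37 in the authors' values, -0.67 with the mean of a gene's features, -0.15 after centring, -0.94 against the overexpression Negative Control and -0.40 against normal cells. Its 9 lower genes became 1, 0, 4, 1 and 0 under quantile, cyclic loess, detected-feature percentile, authors' values and centring, 1 at 4-fold and 5 against normal cells. Between the Negative Controls the median, 0.37, was 0.059, 0.054, 0.25, 0.29, 0.062 and 0.0063 under quantile, cyclic loess, detected-feature percentile, normexp, authors' values and centring, and 1 gene was 2-fold apart. For the overexpression Negative Control against normal cells the median, 0.58, was 0.16, 0.16, 0.30, 0.20 and -0.048 under quantile, cyclic loess, detected-feature percentile, authors' values and centring; its 1 called gene became 0 under each of these and at 4-fold, and 5 at 2-fold. For the knockdown Negative Control against normal cells the median, 0.32, was 0.16, 0.13, 0.17, 0.17 and -0.0056 under the same 5 settings. The median of all genes in the knockdown pair, -0.21, was 0.08 with the detected-feature percentile and -0.56 with normexp. Of 125 recomputed values of called subunit genes, 0 changed sign. These genes were chosen for a large difference in the same data. The filter on dim genes, leaving out Ndufa4 and keeping genes with 1 feature also reuse the main values. The count was therefore largely fixed in advance and is no test of stability. Centring was chosen after seeing the data. The cause of these shifts was not tested.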
